A study of Mus musculus with 33 samples.

Results

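Heat shock proteins and chaperones were followed in single germinal vesicle oocytes of mice with 2, 1 or 0 intact copies of Nlrp5, and 10 genes of the 35321 in the deposited count table make up the set. The members are Hspb1, Hsph1, Hspa8, Hspa4, Hspa5, Hsp90aa1, Hsp90ab1, Hspd1, Hspe1 and Hsf1, found by their symbols in the table, and all 10 had reads in every oocyte. The set was chosen by measured values, since Hspb1 and Hsph1 were already known from the read counts of these same oocytes to be higher in Nlrp5 -/-. Their differences between genotypes are therefore a description without a test, and the question was whether the other 8 members shared them. Hspb1 was higher by 4.37-fold at the earlier and 9.50-fold at the later of the 2 oocyte stages, and Hsph1 by 1.37-fold and 2.33-fold. The cytosolic HSP90 genes Hsp90aa1 and Hsp90ab1 were above every Nlrp5 +/+ oocyte at the later stage only, by 1.40-fold and 1.45-fold, as were 7.24% of all genes, and both overlapped with Nlrp5 +/- oocytes. The remaining 6 members, among them the mitochondrial and endoplasmic reticulum chaperones and Hsf1, overlapped with Nlrp5 +/+ at both stages.

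Chaperones bind unfolded or partly folded proteins and keep them from aggregating while they fold, assemble or are handed on for degradation. Small heat shock proteins such as HSPB1 hold unfolded clients without using ATP, HSP70 proteins bind and release them in an ATP cycle that HSP110 proteins such as HSPH1 speed up by exchanging the nucleotide, and HSP90 proteins act late on nearly folded clients. In most cells proteotoxic stress activates the transcription factor HSF1, which binds heat shock elements made of repeated GAA and TTC units and raises transcription of many of these genes. HSF1 is also a maternal factor that mouse oocytes need for meiosis and early cleavage. As germinal vesicle oocytes pass from the non-surrounded nucleolus (NSN) to the surrounded nucleolus (SN) state, transcription stops, so the RNA of an SN oocyte was largely made before that state.

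Nlrp5 encodes NALP5, a core protein of the subcortical maternal complex, and the Nlrp5 -/- line carries a small CRISPR/Cas9 deletion that introduces a premature stop codon. Oocytes were released by collagenase from ovaries of females aged 3 weeks on a C57BL6/Babr background, and the RNA of each was sequenced apart from its DNA. Of the Nlrp5 +/+ oocytes 4 were NSN and 6 SN, of the Nlrp5 +/- oocytes 9 and 7, and of the Nlrp5 -/- oocytes 4 and 2. A further Nlrp5 -/- oocyte, number 15, has no published stage, and its values stand apart and are given on their own. The Nlrp5 -/- mice had Nlrp5 +/- littermates in the study, but most Nlrp5 +/+ mice came from the founding colony. Since the labels name no mouse, the oocytes of a genotype and stage were treated as 1 sample, an SD describes only the spread between oocytes, and no p-value was computed.

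Each oocyte had 4223595 to 15573360 reads on genes (median 7724335). Counts were divided by size factors computed over all 33 oocytes, and a difference is the log2 ratio of 2 group means after adding 1 to each. Nlrp5 itself had 1362 to 2556 normalized counts in the 6 staged Nlrp5 -/- oocytes against 10114 to 29131 in the 10 Nlrp5 +/+ oocytes and 5062 to 13472 in the 16 Nlrp5 +/- oocytes, so the transcript level followed the labels. The summed level of 10 oocyte markers, such as Gdf9 and Zp3, was 19456 to 31047 CPM (reads of a gene scaled to a common library total) in the Nlrp5 +/+ and Nlrp5 +/- oocytes, 23628 to 27231 in the staged Nlrp5 -/- oocytes and 15939 in oocyte 15. Each first index sequence of the libraries occurs with 1 genotype only, so index and genotype cannot be told apart, and no label says what an index sequence marks. The stages were set by the study from the expression of marker genes in these same libraries, and Hsph1 is 1 of its 105 NSN markers, so the difference of Hsph1 between stages is part of how the stages were set.

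The stretches upstream of the start sites are shown because heat shock elements there are the known route by which HSF1 raises these genes. A promoter was taken as 250 bases before to 50 after a RefSeq start in GRCm38.p6, and it was searched for GAANNTTC and TTCNNGAA, the 2 ways in which a pair of facing units can stand. Each of these words reads the same on both strands, and adjacent matches can share bases. RefSeq promoters were at hand for 6 members, some with 2 starts, and 4 of these genes held a match in at least 1 promoter, beside 17% of all genes and 15.1% of all 32851 promoters. Matches are in capitals, and positions count from the first transcribed base.
Hspb1, chr5:135887769-135887868, plus strand: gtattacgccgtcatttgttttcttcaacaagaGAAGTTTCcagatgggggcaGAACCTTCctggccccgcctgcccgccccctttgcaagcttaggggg
Hsph1, chr5:149636351-149636380, minus strand: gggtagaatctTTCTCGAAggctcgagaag
Hspe1, chr1:55088053-55088082, plus strand: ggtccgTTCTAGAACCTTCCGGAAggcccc
Hspa1b, chr17:34959289-34959388, minus strand: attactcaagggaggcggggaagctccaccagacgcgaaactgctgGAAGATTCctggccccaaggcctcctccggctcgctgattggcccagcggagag

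Hspb1 held 2 matches, beginning 117 and 97 bases before its start, and 1.96% of all promoters held at least 2. The stretch of Hsph1 contains a match that begins 33 bases before the upstream of its 2 RefSeq starts, and 2 further overlapping matches begin 36 and 41 bases into the transcript. The match in the stretch lies inside the deposited entry of Hsph1, which begins upstream of both RefSeq starts. Hspe1 and Hspd1 face away from each other and share this stretch, in which 3 overlapping matches form a run of alternating units, and 0.256% of all promoters held at least 3. The stretch begins 95 bases before the start of Hspe1 and lies inside the deposited entry of Hspd1. Of the 2 RefSeq promoters of Hspd1, 1 holds these matches and that of the upstream start holds 0. Hspa1b, an inducible HSP70 gene that is no member and is described with the other heat-inducible genes, held 1 match that begins 104 bases before its start. Dnajb1, another of those genes, held 0 in both of its promoters. The promoters of Hspa4 and Hspa5 held none of these words. Promoters of Hspa8, Hsp90aa1, Hsp90ab1 and Hsf1 were not analysed here. A match is a matter of letters alone and shows no binding.

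The order of the members was first read in the 10 Nlrp5 +/+ oocytes, per kilobase of exon and with both stages together, as the mean ± SD of normalized counts. Hsp90aa1, the stress-responsive HSP90 isoform, stood far above the rest at 5394 ± 1103 per kilobase. Hspa8, the constitutive HSP70, followed at 663 ± 190, ahead of Hspe1 at 541 ± 110, Hsp90ab1 at 533 ± 87.2 and Hspa5 at 511 ± 86.2, and these 4 did not differ beyond their spread. Hspa4 at 288 ± 81.6, Hspd1 at 205 ± 49.7 and Hsph1 at 179 ± 94.7 came next and also overlapped. Hsf1 at 54.9 ± 7.31 and Hspb1 at 35.0 ± 28.8 were lowest. Hspb1 was thus the member with the least RNA in wild-type oocytes and the one with the widest relative spread between them.

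**Figure D1:**
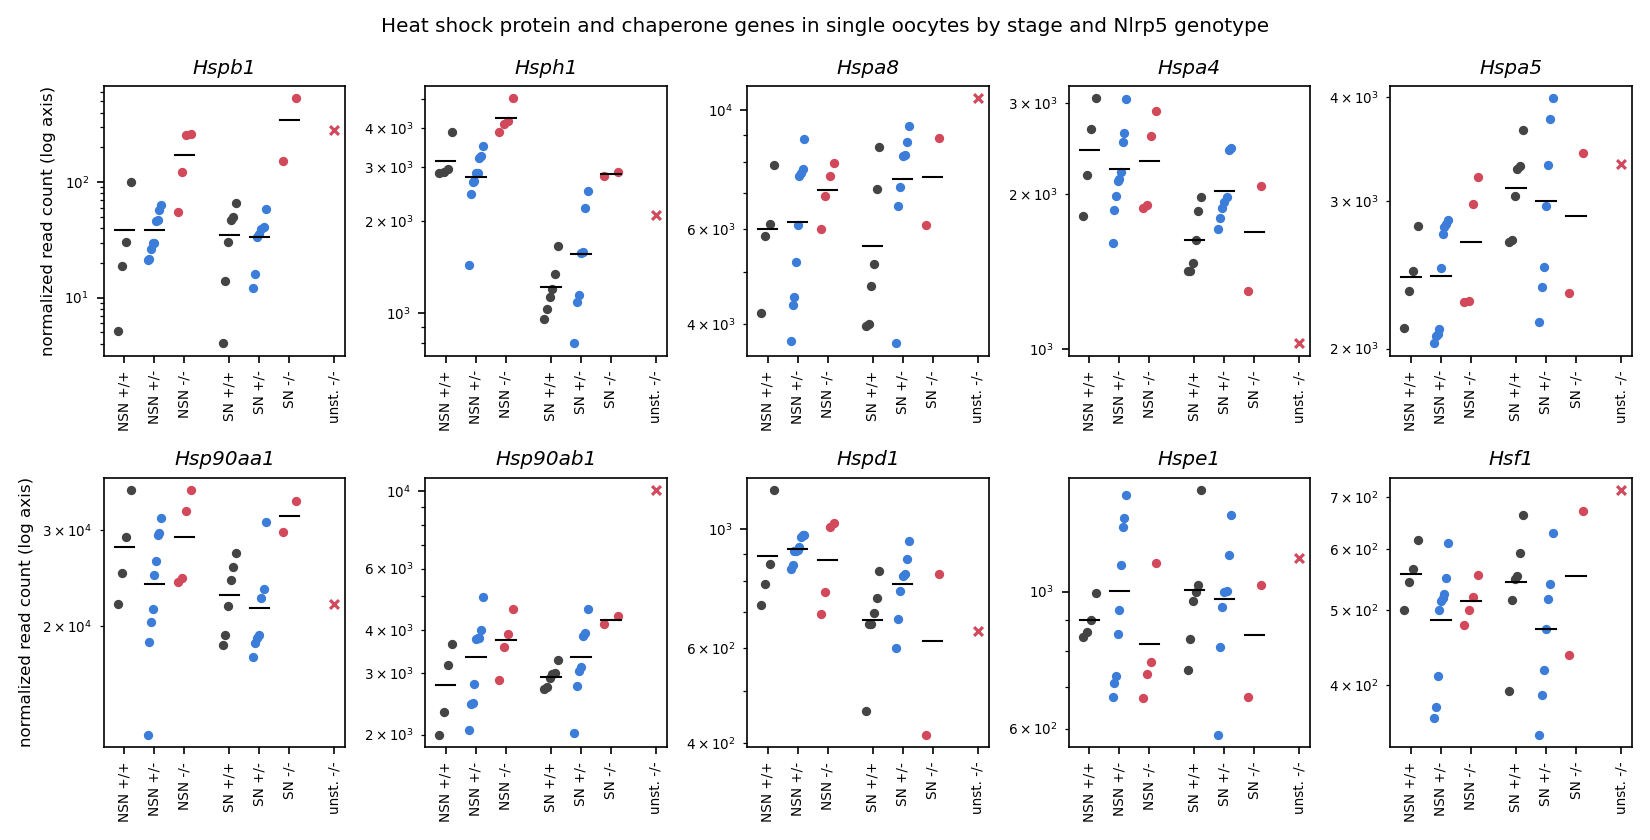
Normalized read count (log axis, a separate scale for each gene) of the 10 members in each of 33 oocytes by stage and Nlrp5 genotype. Points are oocytes, horizontal lines group means and the cross oocyte 15, which has no stage. Hspb1 in the Nlrp5 -/- oocytes lies at 55.4 to 533 against 4.01 to 100.1 in the Nlrp5 +/+ oocytes, and most other members overlap between genotypes.

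Hspb1, which encodes the small heat shock protein HSP25 (chr5:135887919-135889563 in GRCm38, plus strand), was higher in Nlrp5 -/- than in Nlrp5 +/+ oocytes at both stages. In NSN oocytes its normalized counts were 5.19, 18.9, 30.4 and 100.1 in Nlrp5 +/+ and 55.4, 121.5, 254 and 259 in Nlrp5 -/-. Oocyte 13 (55.4) fell below the highest Nlrp5 +/+ oocyte, number 70, while the other 3 were above it. The means were 38.6 ± 42.3 (SD, n = 4 oocytes) and 172 ± 101 (n = 4), a difference of 2.13 on the log2 scale or 4.37-fold.

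At the SN stage the 2 Nlrp5 -/- oocytes had 152 (oocyte 7) and 533 (oocyte 31) normalized counts of Hspb1. The 6 Nlrp5 +/+ oocytes ranged from 4.01 to 66.2 with a median of 38.5, so the groups did not overlap. The difference was 3.25 on the log2 scale, or 9.50-fold, and it was 2.08 without oocyte 31 and 3.88 without oocyte 7. The Nlrp5 +/- oocytes were at the Nlrp5 +/+ level, with 21.2 to 63.9 (median 29.8) in NSN and 12.2 to 58.6 (median 35.8) in SN oocytes. Against these Nlrp5 +/- oocytes the Nlrp5 -/- difference was 2.14 in NSN and 3.31 in SN oocytes. Of the 6 staged Nlrp5 -/- oocytes, 5 were above all 26 Nlrp5 +/+ and Nlrp5 +/- oocytes, whatever the stage. The levels rest on few reads, 7 to 149 in a Nlrp5 +/+ oocyte and 30 to 736 in a staged Nlrp5 -/- oocyte. At the NSN stage Nlrp5 +/+ oocyte 70 carried most of the Nlrp5 +/+ mean, and without it the difference was 3.18.

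Hsph1, which encodes the HSP110 nucleotide exchange factor of HSC70 (chr5:149614287-149636376, minus strand), was also higher in Nlrp5 -/- oocytes, more so at the SN stage. In NSN oocytes the normalized counts were 2853, 2877, 2939 and 3902.6 in Nlrp5 +/+ and 3903.7, 4129, 4218 and 5018 in Nlrp5 -/-. The groups met almost exactly, at Nlrp5 +/+ oocyte 79 and Nlrp5 -/- oocyte 13, and with scaling by the total count or by TMM factors they overlapped. The difference of the means, 3143 ± 508 and 4317 ± 486 (SD, n = 4 each), was 0.46 on the log2 scale, or 1.37-fold, below the minimum of 0.5 that the study used. It was 0.58 without oocyte 79.

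At the SN stage the Nlrp5 -/- oocytes had 2797 and 2881 normalized counts of Hsph1, almost as many as the Nlrp5 +/+ oocytes at the NSN stage. The Nlrp5 +/+ SN oocytes had 956 to 1659 (median 1165) and the Nlrp5 +/- SN oocytes 796 to 2503 (median 1566), so both Nlrp5 -/- oocytes were above all of them. The differences were 1.22 from Nlrp5 +/+, or 2.33-fold, and 0.87 from Nlrp5 +/-, and leaving out 1 oocyte at a time gave 1.16 to 1.33 and 0.76 to 1.02. Among NSN oocytes the difference from Nlrp5 +/- (1435 to 3495) was 0.64, and these groups did not overlap.

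The partner of HSPH1 in the HSP70 cycle, the constitutive HSC70 encoded by Hspa8 (chr9:40800984-40810087, plus strand), was not separated between genotypes. NSN oocytes had 4194, 5833, 6151 and 7907 normalized counts in Nlrp5 +/+ and 6006, 6933, 7522 and 7965 in Nlrp5 -/-, a difference of 0.24. SN oocytes had 3967 to 8531 (median 4943) in Nlrp5 +/+ and 6123 and 8865 in Nlrp5 -/-, a difference of 0.42. The Nlrp5 +/- SN oocytes were as far from Nlrp5 +/+, with 3684 to 9342 (median 8207) and a difference of 0.41, and the difference of Nlrp5 -/- from Nlrp5 +/- was 0.01. Both values of Nlrp5 -/- SN oocytes rest on which oocyte is kept, and without oocyte 31 they were 0.13 and -0.28 and without oocyte 7 0.67 and 0.25.

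Hspa4 (chr11:53259814-53300457, minus strand), another HSP110-type gene, and Hspa5 (chr2:34771970-34777547, plus strand), which encodes the HSP70 protein BiP of the endoplasmic reticulum, gave no common direction. Hspa4 had 1812 to 3068 normalized counts in Nlrp5 +/+ and 1877 to 2903 in Nlrp5 -/- NSN oocytes, a difference of -0.07. In SN oocytes Nlrp5 -/- oocyte 7 (1297) was below and oocyte 31 (2075) above every Nlrp5 +/+ oocyte (1418 to 1973). For Hspa5 the 2 oocytes stood the other way round, with 3433 in oocyte 7 and 2331 in oocyte 31 against 2686 to 3649 in Nlrp5 +/+. The differences at the SN stage were 0.05 for Hspa4 and -0.11 for Hspa5, and each takes the sign of the oocyte that is kept when the other is left out. At the NSN stage that of Hspa5 was 0.14, with 2114 to 2800 in Nlrp5 +/+ and 2276 to 3209 in Nlrp5 -/-.

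The cytosolic HSP90 genes were the only other members whose groups were separate at the SN stage. Hsp90aa1 (chr12:110690605-110702728, minus strand), the inducible isoform, had 29748 and 33918 normalized counts in the Nlrp5 -/- SN oocytes and 18459 to 27232 (median 23032) in the Nlrp5 +/+ SN oocytes, a difference of 0.48. Hsp90ab1 (chr17:45567775-45573271, minus strand), the constitutive isoform, had 4147 and 4378 against 2700 to 3268 (median 2955), a difference of 0.54. Among the Nlrp5 +/- SN oocytes, however, oocyte 55 had 31081 counts of Hsp90aa1 and oocyte 40 had 4597 of Hsp90ab1, so both Nlrp5 -/- ranges overlapped that genotype. The differences from Nlrp5 +/- were 0.56 and 0.35. At the NSN stage Hsp90aa1 hardly differed (21899 to 35608 in Nlrp5 +/+, 24067 to 35590 in Nlrp5 -/-, a difference of 0.06). Hsp90ab1 was higher by 0.42 there, with 1996, 2328, 3163 and 3653 in Nlrp5 +/+ and 2876, 3574, 3890 and 4598 in Nlrp5 -/-, and the groups overlapped.

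Hspd1 and Hspe1 encode HSP60 and its cochaperonin HSP10, which together fold proteins in the mitochondrial matrix. Their entries (chr1:55077835-55088243, minus strand, and chr1:55088132-55091307, plus strand) share 112 bases, and without strand information reads there cannot be assigned to either. Hspd1 had 724 to 1184 normalized counts in Nlrp5 +/+ and 696 to 1029 in Nlrp5 -/- NSN oocytes, and Hspe1 had 843 to 993 and 672 to 1114. The differences of -0.02 and -0.13 lie within the spread between oocytes. In SN oocytes the Nlrp5 -/- values were 414 and 826 for Hspd1 and 676 and 1024 for Hspe1, in both cases with oocyte 7 below every Nlrp5 +/+ oocyte (460 to 835 and 748 to 1461). The differences were -0.13 and -0.24, and for Hspd1 they ran from -0.71 without oocyte 31 to 0.29 without oocyte 7. Neither gene was higher with the loss of Nlrp5.

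Hsf1 (chr15:76477422-76501913, plus strand), the gene of the transcription factor, overlapped between the genotypes at both stages. Its normalized counts were 500 to 617 in Nlrp5 +/+ and 478 to 554 in Nlrp5 -/- NSN oocytes and 393 to 664 in Nlrp5 +/+ SN oocytes. The 2 Nlrp5 -/- SN oocytes had 437 and 671. The differences were -0.12 and 0.02, the latter an average of opposed oocytes, with -0.32 without oocyte 7 and 0.30 without oocyte 31. Nothing here measures the activity of the protein.

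Counted over the 10 members, 1 was higher by at least 0.5 in Nlrp5 -/- than in Nlrp5 +/+ oocytes at the NSN stage (Hspb1), beside 15.6% of all 13833 genes with a mean of at least 10 normalized counts, and 0 were lower, beside 13.3%. One member (Hsph1) had groups that did not overlap, beside 3.96% of genes higher and 3.14% lower. At the SN stage 3 were higher by at least 0.5 (Hspb1, Hsph1 and Hsp90ab1), beside 15.9%, and 0 were lower, beside 18.7%. There 4 members (these and Hsp90aa1) were above every Nlrp5 +/+ oocyte, beside 7.24% of genes, and 0 below, beside 7.85%. Hspb1 and Hsph1 chose the set, so they count for nothing here. Of the other 8 members, 0 in NSN and 1 in SN oocytes were higher by at least 0.5, which by that rule is near the background. In SN oocytes 2 of the 8, the HSP90 genes, were above every Nlrp5 +/+ oocyte, beside the 7.24% of genes given, and in NSN oocytes 0 were. The median differences of the 8 were 0.02 and 0.04, with medians over all genes of 0.00 and -0.00. Without oocytes 13 and 14, whose libraries hold more RNA of follicle cell genes, Hspb1 and Hsph1 were the 2 members at least 0.5 higher at the NSN stage. Without oocyte 13 alone, or without Nlrp5 +/+ oocyte 79, there were 3, with Hsp90ab1 added. Among SN oocytes, without oocyte 31, 4 members were at least 0.5 higher and 2, Hspd1 at -0.71 and Hspe1 at -0.57, lower. With total-count or TMM scaling Hsp90aa1 also passed 0.5 there.

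**Figure D2:**
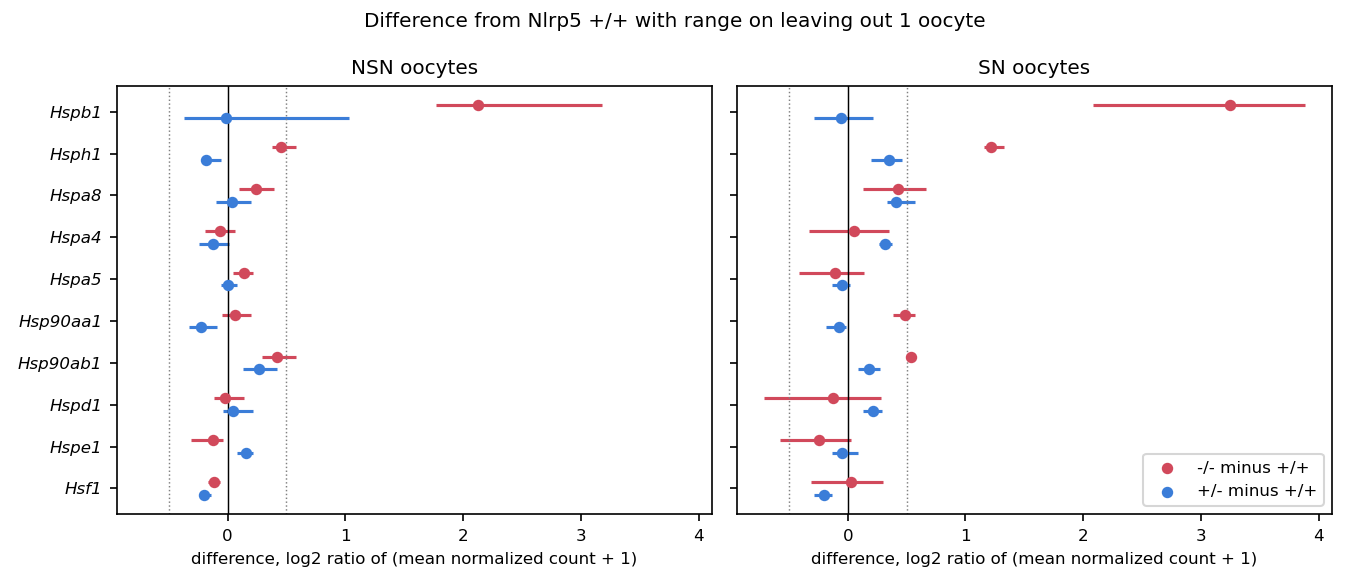
Difference of Nlrp5 -/- (red) and Nlrp5 +/- (blue) from the same Nlrp5 +/+ oocytes for each member, as the log2 ratio of mean normalized counts plus 1. Bars give the lowest and highest value when 1 oocyte is left out, and dotted lines mark 0.5 in either direction. Hspb1 in Nlrp5 -/- stays at 1.77 or more in NSN and 2.08 or more in SN oocytes, and no Nlrp5 +/- point passes 0.5.

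In Nlrp5 +/- oocytes, which carry 1 intact copy, 0 of the 10 members differed from Nlrp5 +/+ by 0.5 at either stage. Over all genes 10.8% were higher and 8.61% lower by that amount in NSN oocytes, and 5.33% and 5.29% in SN oocytes. The Nlrp5 +/- oocytes stood above or below all Nlrp5 +/+ oocytes for 0 members too, beside 0.175% and 0.269% of genes in NSN and 0.0226% and 0.0602% in SN oocytes. The differences ran from -0.23 (Hsp90aa1) to 0.26 (Hsp90ab1) in NSN oocytes and from -0.20 (Hsf1) to 0.41 (Hspa8) in SN oocytes. Those of Hspb1 were -0.02 and -0.06, and the first was 1.03 without Nlrp5 +/+ oocyte 70. That of Hspa8 in SN oocytes was 0.57 without Nlrp5 +/+ oocyte 69 and 0.73 from medians over oocytes. Those of Hsph1 were -0.18 and 0.35. The comparisons of Nlrp5 -/- and of Nlrp5 +/- use the same Nlrp5 +/+ oocytes, so the values stand side by side and were not correlated. Against Nlrp5 +/- oocytes, 2 members were higher by 0.5 in Nlrp5 -/- among NSN oocytes (Hspb1 and Hsph1), beside 12.2% of genes, and 3 among SN oocytes (these and Hsp90aa1), beside 14.6%, and 0 were lower, beside 14.9% and 17.6%. Without overlap, 1 member was higher in NSN oocytes (Hsph1), beside 0.476% of genes, and 2 in SN oocytes (Hspb1 and Hsph1), beside 5.25%, and 0 were lower, beside 0.686% and 5.81%. Hspb1 and Hsph1 chose the set, so they count for nothing in these numbers either. Of the other 8 members, 0 in NSN and 1 in SN oocytes (Hsp90aa1) were higher by 0.5, and 0 were without overlap at either stage.

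From NSN to SN in Nlrp5 +/+ oocytes, Hsph1 went from 3143 to 1219 normalized counts, a difference of -1.37 that is part of how stage was set. Hspa4 had 1418 to 1973 normalized counts in SN against 1812 to 3068 in NSN oocytes, a difference of -0.58. These were the 2 members past 0.5 downwards, beside 20% of genes, and 0 were past it upwards, beside 13.9%. Hsph1 was the only member without overlap, beside 6.07% of genes lower and 3.73% higher. Hspd1 (-0.39) and Hsp90aa1 (-0.30) were also lower at the SN stage and Hspa5 (0.35) was higher, each with overlapping groups. Hspa8 (-0.11), Hsp90ab1 (0.08), Hspe1 (0.16) and Hsf1 (-0.03) were close to level. Hspb1 was at -0.13, but at 0.92 without NSN oocyte 70, so its direction between the stages rests on 1 oocyte. Without NSN oocyte 78 the value of Hspa4 was -0.45, which leaves Hsph1 alone past 0.5 downwards.

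In Nlrp5 +/- oocytes the stage difference of Hsph1 was -0.84 and that of Hspa4 -0.14, and 1 member passed 0.5 downwards, beside 19.4% of genes, and 0 upwards, beside 9.33%. There 0 members were without overlap, beside 0.823% of genes lower and 0.514% higher. In Nlrp5 -/- oocytes Hsph1 had -0.60, with 1 member past 0.5 downwards beside 23.8% and 1 upwards, Hspb1 at 0.99, beside 14.3%. Hsph1 was the 1 member without overlap, beside 10.8% of genes lower and 9.47% higher. The value of Hspb1 rests on oocyte 31 and is -0.18 without it. With 2 SN oocytes in Nlrp5 -/-, whether the stage difference of Hsph1 is smaller there than in the other genotypes was not tested. The differences of the other members in Nlrp5 -/- oocytes ran from -0.50 (Hspd1) to 0.19 (Hsp90ab1). Without oocyte 31 that of Hspd1 was -1.08 and that of Hspa4 -0.84, and 3 members were past 0.5 downwards, and without oocyte 7 that of Hspd1 was -0.08. The number past 0.5 downwards was also 3 without oocyte 13 and without oocyte 14.

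The stage groups themselves were not equally advanced, so levels were also read against a score that makes no split. The staging score is the mean log2 level of 104 NSN markers, Hsph1 left out, minus that of 59 SN markers, and it is lower in more mature oocytes. It was -5.31 to -4.11 in Nlrp5 +/+ SN oocytes, -5.17 to -3.65 in Nlrp5 +/- SN oocytes and -4.26 and -3.89 in the 2 Nlrp5 -/- SN oocytes. A line of log2 level on the score over the 26 Nlrp5 +/+ and Nlrp5 +/- oocytes had a slope of 0.69 for Hsph1, with a residual SD of 0.26 and a highest residual of 0.53. The Nlrp5 -/- oocytes 7, 29, 30 and 31 were 0.88, 0.74, 0.68 and 0.67 above that line and above every oocyte it was drawn through. Oocyte 13 was just within that range at 0.53, and oocyte 14, the least mature by the score, lay close to the line at -0.09. By its residual Hsph1 thus stood above all 26 oocytes of the line in 4 of 6 Nlrp5 -/- oocytes, both SN oocytes among them.

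Hspb1 hardly followed the score, with a slope of 0.13 and a residual SD of 1.03. The Nlrp5 -/- oocytes were above the line by 0.78 (oocyte 13), 1.92 (29), 2.39 (7), 2.83 (14), 2.95 (30) and 4.14 (31), and 5 of the 6 were above the highest of the 26 residuals, 1.66. A count of at least 4 of 6 above all others was taken as a rule after these values had been seen, and 0.784% of 13896 genes met it, with 1.09% below all others in the same way. Of the other 8 members, Hsp90aa1 and Hsf1 had 1 Nlrp5 -/- oocyte above all others, Hspd1 had 2 below, and the rest had 0 on either side. Drawn over the 10 Nlrp5 +/+ oocytes alone, the line left 5 Nlrp5 -/- oocytes above for both Hspb1 and Hsph1 and 4 for Hsp90ab1, with 7.61% of genes at 4 or more, and 4 below for Hspe1, with 5.43%.

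**Figure D3:**
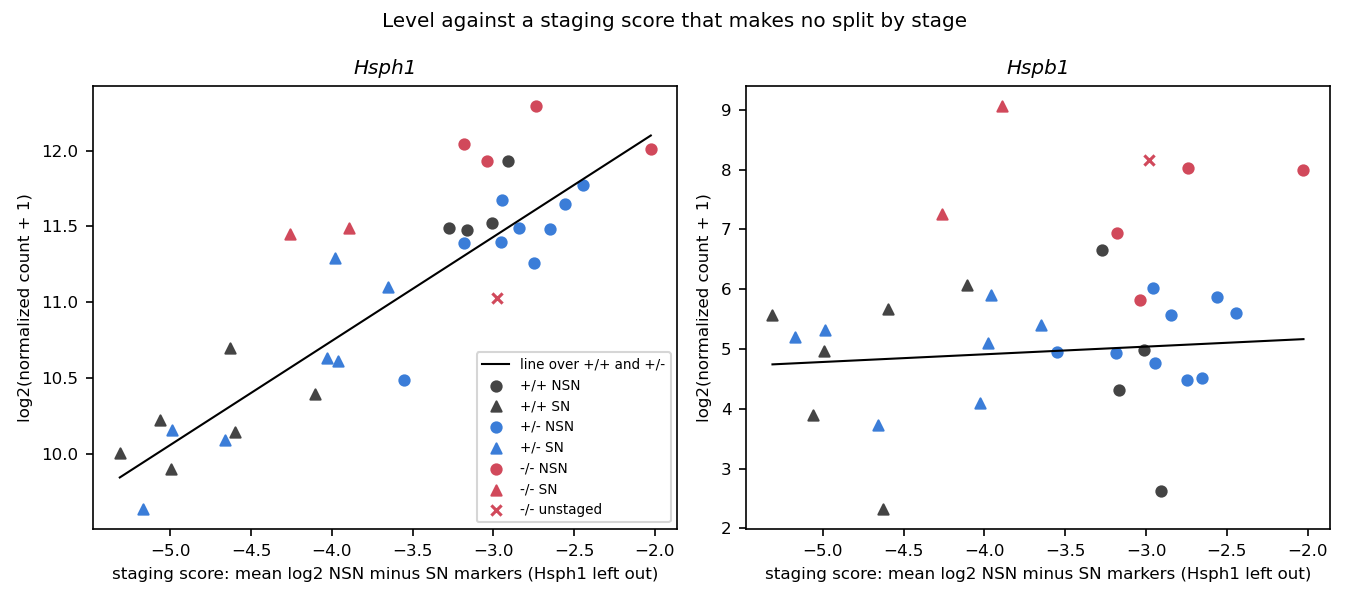
Level of Hsph1 (left) and Hspb1 (right) in each of 33 oocytes as log2(normalized count + 1) against the staging score, which is lower in more mature oocytes. The line is drawn over the Nlrp5 +/+ (black) and Nlrp5 +/- (blue) oocytes, circles are NSN, triangles SN and the cross oocyte 15. The slope is 0.69 for Hsph1 and 0.13 for Hspb1, and 4 and 5 of the 6 staged Nlrp5 -/- oocytes (red) lie above every black and blue residual.

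The Nlrp5 -/- libraries also held more RNA of some granulosa cell genes, the genes of the follicle cells that surround the oocyte. Over all 16 markers the summed level was 290 to 686 CPM in the staged Nlrp5 -/- oocytes and 282 to 475 CPM in the other 26, mostly from genes that the oocytes themselves express. Over the 12 markers with a mean under 50 normalized counts in Nlrp5 +/+ oocytes, a limit set after the data had been seen, it was 3.12 to 14.7 CPM in the 10 Nlrp5 +/+ oocytes and 17.9 to 320 CPM in the 6 staged Nlrp5 -/- oocytes, all above every Nlrp5 +/+ oocyte. The Nlrp5 +/- oocytes had 3.99 to 101 CPM, with the highest value in oocyte 61 and the next at 29.2. Oocytes 7, 13 and 14 stood at 112, 161 and 320, above every Nlrp5 +/- oocyte as well, and oocytes 29, 30 and 31 at 21.4, 18.1 and 17.9, inside the Nlrp5 +/- range. Taken from the highest marker level to the lowest, Hspb1 was at 254 in oocyte 14, 55.4 in oocyte 13, 152 in oocyte 7, 121.5 in oocyte 29, 259 in oocyte 30 and 533 in oocyte 31.

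Without oocytes 13 and 14 the NSN difference of Hspb1 was 2.27, with no overlap, and that of Hsph1 was 0.55. As no staged Nlrp5 -/- oocyte is at the Nlrp5 +/+ level of these markers, their part in the differences was not tested. Oocytes 29, 30 and 31 share their first index sequence, as do oocytes 13, 14 and 15, and oocyte 7 has another. Hspb1 was above all Nlrp5 +/+ and Nlrp5 +/- oocytes in libraries of each of the 3 index sequences. For 8 theca and interstitial cell markers the NSN oocytes had 10.9 to 22.4 CPM in Nlrp5 +/+ and 14.5 to 239 in Nlrp5 -/-, and the SN oocytes 3.23 to 5.91 and 14.03 and 27.1, separate in the latter, with 9.71 to 271 in Nlrp5 +/- oocytes of both stages. For 12 stroma, vessel and blood markers the NSN oocytes had 45.9 to 75.1 CPM in Nlrp5 +/+, 57.6 to 88.4 in Nlrp5 +/- and 86.2 to 117 in Nlrp5 -/-. Over the 11 of these under the same limit of 50, which leaves out Pecam1, the NSN oocytes had 0.50 to 11.9 CPM in Nlrp5 +/+ and 8.76 to 45.8 in Nlrp5 -/-, which overlap.

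**Figure D4:**
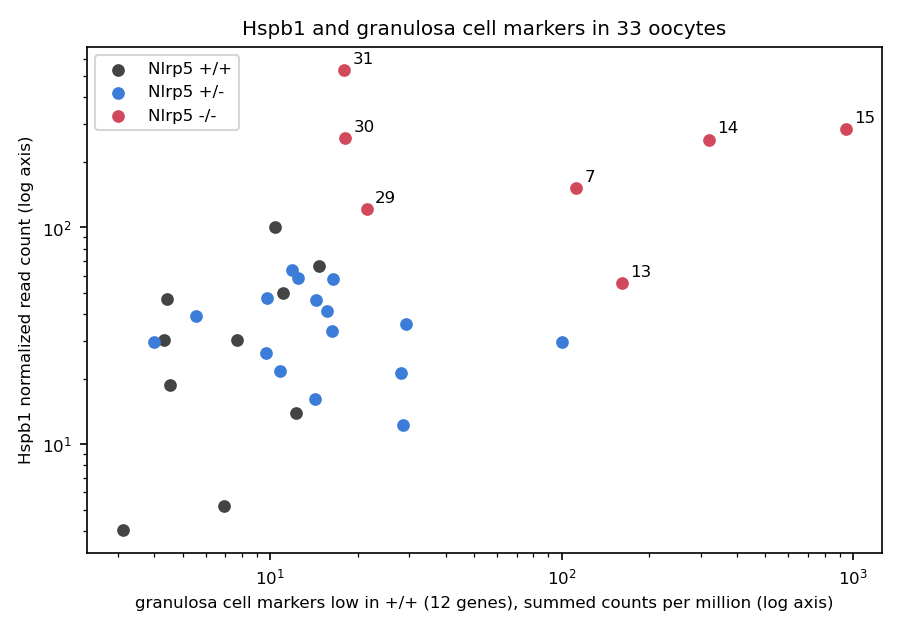
Normalized read count of Hspb1 against the summed level of 12 granulosa cell markers that are low in Nlrp5 +/+ oocytes, in CPM, both on log axes, for 33 oocytes. Numbers name the Nlrp5 -/- oocytes (red). Oocytes 14 (254 and 320 CPM) and 15 (283 and 945 CPM) are high for both. Of the red points oocyte 31 (533 and 17.9 CPM) has the most Hspb1 and the lowest marker level in CPM, and oocyte 13 (55.4 and 161 CPM) the least Hspb1.

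Since the members include few of the classic stress-induced genes, a list of 18 other heat-inducible genes was read beside them. It was chosen with results of these data known and is no independent evidence. At the NSN stage 15 of them passed a mean of 10 normalized counts. Higher by at least 0.5 in Nlrp5 -/- than in Nlrp5 +/+ oocytes were 8, beside 15.6% of all genes, and 0 were lower, beside 13.3%. Their median difference was 0.55, and 0.48 with 7 higher without oocytes 13 and 14. Of the 8, Hspa1a, Hspa1b and Serpinh1 had Nlrp5 +/+ means under 10 and passed only through the Nlrp5 -/- oocytes where they are high, so they had to differ. Among the 12 genes with a Nlrp5 +/+ mean of at least 10, 5 were higher and the median was 0.37. In SN oocytes 13 passed, 4 were higher, beside 15.9% of all genes, 1 was lower (Dnajb4, -0.76), beside 18.7%, and the median was 0.38, and Hspa1b again passed only through the Nlrp5 -/- oocytes, without which 3 of 12 were higher. Against Nlrp5 +/- oocytes 4 of 13 were higher in Nlrp5 -/- at the NSN stage, beside 12.2% of all genes. There 0 were lower, beside 14.9%, and the median was 0.32. At the SN stage 6 of 14 were higher, beside 14.6%, and 1 was lower, beside 17.6%, with a median of 0.39. Of these 14, 1 had a Nlrp5 +/- mean under 10 and passed only through the Nlrp5 -/- oocytes. Among the 13 with a Nlrp5 +/- mean of at least 10, 5 were higher and the median was 0.32. Without overlap, 1 was higher in NSN oocytes, beside 0.476%, and 2 in SN oocytes, beside 5.25%. Nlrp5 +/- oocytes themselves had 3 of 13 higher than Nlrp5 +/+ in NSN oocytes, beside 10.8%, and 0 of 12 in SN oocytes, beside 5.33%. Of the 13, 1 had a Nlrp5 +/+ mean under 10 and passed only through the Nlrp5 +/- oocytes, and 2 of the other 12 were higher. The 5 that did not pass at the SN stage include Hspb8, Cryab and Bag3, which stayed under 10 at both stages.

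Hspa1b, an inducible HSP70 gene, had 0.92, 0.94, 14.8 and 17.5 normalized counts in the Nlrp5 +/+ NSN oocytes and 33.2, 41.0, 55.4 and 59.4 in the Nlrp5 -/- NSN oocytes. SN oocytes had 0 to 14.05 in Nlrp5 +/+ and 35.1 and 56.4 in Nlrp5 -/-, which gives differences of 2.34 and 2.44. The gene passed the minimum only through these Nlrp5 -/- values, so its separate groups are a description and support nothing. The 16 Nlrp5 +/- oocytes, with 0 to 32.9, were also below all 6. These are low counts, at most 26 reads in a Nlrp5 +/+ oocyte and 18 to 90 in a Nlrp5 -/- oocyte, and reads may be shared with the near-identical copy Hspa1a, which differed by 1.84 at the NSN stage. Dnajb1, the J-domain partner of inducible HSP70, had 789 to 1518 normalized counts in Nlrp5 +/+ and 1536 to 1823 in Nlrp5 -/- NSN oocytes and 1056 to 1309 against 1838 and 2268 in SN oocytes. The differences were 0.57 and 0.84, and these groups did not overlap. Nlrp5 +/- NSN oocytes, with 963 to 1737, reached into the Nlrp5 -/- range, while Nlrp5 +/- SN oocytes (841 to 1718) were below both Nlrp5 -/- oocytes. Stip1, which encodes the adaptor between HSP70 and HSP90, differed by 0.41 and 0.43, under 0.5 but with separate groups both times. Dnaja1 and Hsbp1 differed by at most 0.14 in size.

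**Figure D5:**
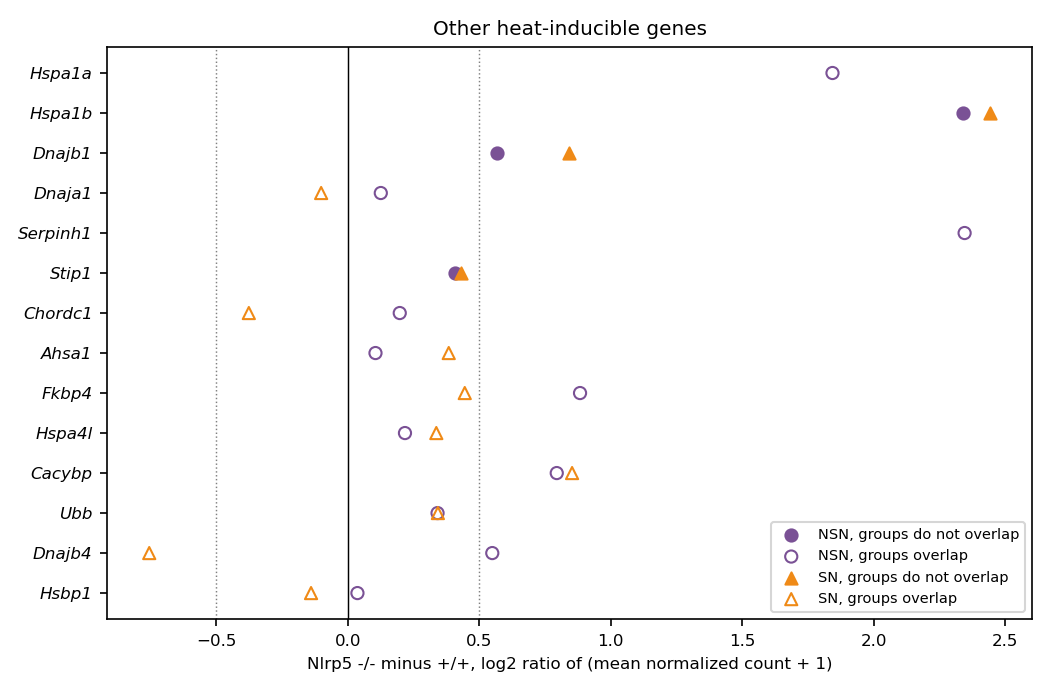
Difference of Nlrp5 -/- from Nlrp5 +/+ oocytes for heat-inducible genes outside the members that passed a mean of 10 normalized counts, 1 of them left out, as the log2 ratio of means plus 1, in NSN (circles) and SN oocytes (triangles). Filled symbols mark groups that do not overlap, and dotted lines mark 0.5 in either direction. Dnajb1 (0.57 and 0.84) is past 0.5 with separate groups at both stages. Hspa1b (2.34 and 2.44) is too, but it and, in NSN oocytes, Hspa1a and Serpinh1 passed the minimum only through the Nlrp5 -/- oocytes.

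Over all 106 genes of the 10 other chaperone lists, 92 passed the same minimum at the NSN stage, and 20.7% of these were at least 0.5 higher in Nlrp5 -/- and 5.43% lower, beside 15.6% and 13.3% of all genes. In SN oocytes 90 passed, with 17.8% higher and 11.1% lower beside 15.9% and 18.7%. Against Nlrp5 +/- oocytes the shares were 6.67% higher and 7.78% lower in NSN oocytes, beside 12.2% and 14.9% of all genes, and 12.1% and 9.89% in SN oocytes, beside 14.6% and 17.6%. The TRiC and prefoldin subunits, which fold actin and tubulin, had medians of -0.00 and 0.03, and 1 of 14 was higher at each stage. The 16 endoplasmic reticulum chaperones had medians of 0.01 and -0.16, with 0 higher and 1 lower in NSN and 1 and 2 in SN oocytes. The 17 HSP90 co-chaperones and HSP90 proteins outside the members had medians of 0.25 and 0.38, with 5 and 3 higher and 0 and 1 lower. The 11 mitochondrial chaperones and proteases had 0.29 and 0.28, with 1 and 3 higher and 0 and 1 lower, and the 20 J-domain proteins that passed had 0.02 and -0.11, with 5 higher and 2 lower in NSN and 2 higher and 5 lower in SN oocytes.

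Outside the heat-inducible list, Hspbp1, a nucleotide exchange factor of HSP70, was higher by 2.03 in Nlrp5 -/- NSN oocytes (23.99 to 83.1 against 2.96 to 15.1 normalized counts), with the highest value in oocyte 14. The Nlrp5 +/- NSN oocytes had 0 to 97.0, which spans both of these ranges. Sgta, a small tetratricopeptide co-chaperone, was higher by 0.86 (709 to 911 against 288 to 615), Dnajc5 by 0.63 and Bag4 by 0.59, and Dnajc21 was lower, at -0.76. Of these only Dnajc5 was separate from the Nlrp5 +/- NSN oocytes too, and Sgta had 255 to 953 there. At the SN stage Cct6a, a TRiC subunit, was higher by 1.42 (123 and 172 against 6.43 to 84.3), Ppp5c by 1.00 and Dnajc5 by 0.67. Dnajb6 (-0.66), Dnajc10 (-0.64) and Dnajc2 (-0.59) were lower there. Of these Cct6a, Dnajb6 and Dnajc10 were also separate from the Nlrp5 +/- SN oocytes. With Hspa1b and Dnajb1, these are among the genes of the lists with the largest differences of those at least 0.5 apart without overlap. Over all genes 3.27% were higher and 2.52% lower by that rule in NSN oocytes and 5.92% and 6.6% in SN oocytes.

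Between stages in Nlrp5 +/+ oocytes, Hsf2 and Cct6a had the largest differences among the listed genes that passed the minimum of 10 and did not overlap. Hsf2, a second heat shock factor that is known to be active in germ cells, had 183 to 471 normalized counts in NSN and 8.84 to 93.9 in SN oocytes, a difference of -2.42, whereas Hsf1 differed by -0.03. Cct6a (-2.32) and Cct4 (-1.67), both TRiC subunits, were the 2 of 14 genes of their list at least 0.5 lower in SN oocytes, beside 20% of all genes. In that list 0 were higher, beside 13.9%, and the median was 0.10. Lower too were Cacybp (-1.31), Clpp (-0.85), Ppp5c (-0.78) and Dnajc5 (-0.77). Fkbp5, a co-chaperone of HSP90 with steroid receptors, was higher by 0.93 (1211 to 2207 in NSN, 2713 to 3811 in SN oocytes). The stages were set on expression in these libraries, so these are descriptions too. Over all genes 3.07% were higher and 5.86% lower by at least 0.5 without overlap, and the genes given are 8 of the 11 in the lists.

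Over the 32 staged oocytes, the genes whose log2 levels were most like Hspb1 among 10089 genes were Tnfrsf21 (Pearson r = 0.60), Socs3 (0.60), BC023719 (0.59), Cdh8 (0.59) and Zfp143 (0.58). Those most like Hsph1 were Rnf6 (0.92), Taf4b (0.90), Uspl1 (0.90), Tspan3 (0.90) and Mdm1 (0.89), none of them a staging marker. The r between Hspb1 and Hsph1 was 0.35. Among the members Hsph1 was closest to Hspa4 (0.60) and Hsp90aa1 (0.59) and farthest from Hspa5 (-0.44). The oocytes share genotype, stage and libraries, so these values describe likeness and carry no test.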

How the data were processed

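The authors made single-oocyte cDNA libraries, used Trim Galore and HISAT2, by their processing notes, and deposited raw read counts per gene and oocyte; strand use is not given in the sources used here, and the labels name GRCm38 whereas the methods name GRCm39. Positions are GRCm38 as deposited. The table had 35373 entries, of which 52 repeated an identifier and were dropped. Counts were divided by median-of-ratios size factors (0.542 to 1.97, from 11845 genes with reads in every oocyte). Differences are log2 ratios of group means with a pseudocount of 1, and background shares use genes with a mean of at least 10 normalized counts. Since no mouse is named, no edgeR or DESeq2 test was run. Stages were read from the study's figures. The members, gene lists and rules were chosen with earlier results of these data known. Beside the members, the text names up to 8 genes per comparison from the lists, those with the largest difference among genes at least 0.5 apart without overlap, and describes other listed genes chosen after their values were seen. Values of 1 listed gene are not reported here, though counts and medians over its list include it. Per-kilobase levels use exon lengths matched by Ensembl identifier. Alternatives were total-count and TMM scaling (edgeR 4.0.16), a pseudocount of 5, medians, pooled sums, other filters, no split by stage and leaving out oocytes. The calculation was tested on simulated data. Software was Python 3.11.15, numpy 2.4.6, pandas 2.3.3 and R 4.3.3.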

Additional observations from a re-analysis of the deposited data

Results flagged for a closer look

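Among the groups of 4 to 10 oocytes, 50 combinations of member, genotype and stage were examined for a single oocyte far from the rest by Dixon's criterion, and 3 met it, where chance gives about 1 in 20. Hsph1 in Nlrp5 +/+ NSN oocyte 79 was at 3902.56 normalized counts, with the other 3 at 2853 to 2939. This is the oocyte that almost meets the lowest Nlrp5 -/- value, and without it the difference between the genotypes is 0.58. Hsph1 in Nlrp5 +/- NSN oocyte 61 was at 1435.33, below the other 8. Among the Nlrp5 +/+ and Nlrp5 +/- oocytes, that library also has the highest level of the theca markers (271 CPM) and of the 12 low-level granulosa markers (101 CPM). Over all 16 granulosa markers oocyte 79 was the highest of these, at 475 CPM. Hsp90aa1 in Nlrp5 +/- SN oocyte 55 was at 31081.5, with the other 6 at 17547 to 23329.

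Nlrp5 -/- oocyte 15 enters no comparison, since it has no published stage. It was above every Nlrp5 +/+ oocyte for Hspb1 (283.253 against at most 100.1), Hspa8 (10508.1 against 8531), Hsp90ab1 (10109.7 against 3653) and Hsf1 (715.276 against 664). Its Hspa4, at 1026, was below every Nlrp5 +/+ oocyte (1418 or more), and its Hsph1, at 2087, was below all 6 staged Nlrp5 -/- oocytes and every Nlrp5 +/+ NSN oocyte (2853 or more), though above the Nlrp5 +/+ SN oocytes. The other 4 members lay within the Nlrp5 +/+ range. It also had 945 CPM of the 12 granulosa markers, 672 CPM of the theca markers and the lowest oocyte marker level of all 33 libraries. The part of this in its chaperone levels was not tested.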

How the results depend on the processing

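The alternatives for the other heat-inducible genes, the low-level marker lists, the rule of 4 of 6 oocytes above the line and the count over 8 members were chosen after seeing the data. The median difference of the other heat-inducible genes between Nlrp5 -/- and Nlrp5 +/+ NSN oocytes (0.55) was 0.44 from pooled sums, 0.33 without regard to stage, 0.37 with the filter on the Nlrp5 +/+ mean alone and 0.43 to 0.58 with 1 oocyte left out. In SN oocytes (0.38) leaving out 1 gave 0.20 (without oocyte 7) to 0.42. The median of the 10 members between SN and NSN in Nlrp5 -/- (0.09) was 0.0044 from pooled sums and ran from -0.20 (without oocyte 31) to 0.11. The SN minus NSN difference of Hspb1 in Nlrp5 -/- (0.99) was -0.18 without oocyte 31 and 1.62 without oocyte 7. The number of members at least 0.5 higher in Nlrp5 -/- than Nlrp5 +/+ ran from 1 to 3 in NSN and from 3 to 4 in SN oocytes over all alternatives, and the number lower was 0 in NSN and 0 to 2 in SN oocytes. No paired analysis was possible because the replicate numbers only name oocytes and no test was run. With 2 Nlrp5 -/- SN oocytes and no named mouse, none of these ranges measures the spread between mice.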
